A study of Sus scrofa with 23 samples.

Results

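The genes described here are 10 members of the cAMP signalling pathway: the transcription factors CREB1, CREM and ATF1, their coactivators CRTC1, CRTC2 and CRTC3, the catalytic subunits of protein kinase A (PKA), PRKACA and PRKACB, and its regulatory subunits, PRKAR1A and PRKAR2A. They were taken by gene symbol from the 26687 genes of the deposited transcript tables, and all 10 passed the expression filter that 20921 genes passed. CREB1 was chosen by its measured RNA level, which was higher in the CF libraries, so its difference between CF and other libraries is given as a description, without a test. The other 9 members were listed as its family and its kinase.

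The RNA-Seq libraries came from kidney cortex of 23 newborn pigs, 1 library per pig, and ribosomal RNA had been depleted. There were 6 libraries labelled WT (CFTR+/+), 6 labelled HET (CFTR+/-) and 11 labelled CF (CFTR-/-), and the WT and HET libraries together formed the non-CF group (n = 12). The labels name no treatment, and sex and litter are not given in them. CFTR encodes the epithelial anion channel that is lost in cystic fibrosis.

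Libraries held 32901281 to 52952273 estimated counts. CFTR RNA went against the labels: it was 2.26 ± 0.79 CPM (estimated counts scaled to library size; SD, n = 6) in the libraries labelled WT, 12.6 ± 2.76 (n = 6) in those labelled HET and 19.9 ± 3.21 (n = 11) in those labelled CF, so genotypes are given below as labels. The second axis of a scaling of the libraries separated 13 pigs (CF pigs 1 to 6 and non-CF pigs 12 to 18; 6 CF, 3 HET, 4 WT) from 10 (CF pigs 7 to 11 and non-CF pigs 19 to 23; 5 CF, 3 HET, 2 WT). They are called earlier- and later-numbered below, an order that holds within CF and within non-CF pigs but not across them. The labels do not say what the numbering follows, and the first axis followed the Y-linked gene EIF1AY, which 13 libraries expressed (2 of 6 WT, 5 of 6 HET and 6 of 11 CF). For the cortex label, 5 of 5 proximal tubule markers and 5 of 5 podocyte markers had a mean of at least 1 TPM (abundance scaled to transcript length and library size), and UMOD of the thick ascending limb was at 189 ± 55.3 TPM (SD, n = 23). In this bulk tissue, more cells of a type and more RNA per cell cannot be told apart.

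As background, hormones such as vasopressin and parathyroid hormone raise cAMP in tubule cells. cAMP binds the regulatory subunits of PKA and frees the catalytic subunits, which phosphorylate CREB1, CREM and ATF1 at a conserved serine. These factors bind the cAMP response element, TGACGTCA or its shorter form TGACG, and the CRTC coactivators, which salt-inducible kinases hold in the cytoplasm, join them there. A short form of CREM made from an internal promoter, ICER (inducible cAMP early repressor), lacks the activating region and represses the same sites.

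Several members are read as more than one kind of transcript, and 5 stretches of the pig genome (Sscrofa11.1, NCBI RefSeq annotation) show where these differ. CREB1 lies on chromosome 15, from 110705548 to 110773037 on the plus strand. The first stretch is its 42-base alternative coding exon, at chr15:110735088-110735129, present in the annotated variants X1, X2 and X3. PRKACA lies on chromosome 2, from 65074876 to 65095564 on the plus strand, and its 2 transcripts start from different first exons. Their coding parts are shown with the start codon in capitals, at chr2:65075092-65075137 for X1 and at chr2:65078790-65078811 for X2. CREM lies on chromosome 10, from 57829523 to 57895610 on the plus strand. The fourth stretch, at chr10:57881558-57881587, lies within the first exon of its variant X26 and holds 2 copies of TGATGTCA, 1 base from the response element, in capitals. The last is the first coding stretch of that variant, at chr10:57881664-57881703, with its start codon in capitals.
CREB1 alternative exon: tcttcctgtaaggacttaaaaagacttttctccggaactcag
PRKACA X1 first coding stretch: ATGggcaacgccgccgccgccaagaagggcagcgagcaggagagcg
PRKACA X2 first coding stretch: ATGgcttccaaccccaaggatg
CREM first exon of X26: gctagTGATGTCActgTGATGTCAgtactc
CREM X26 first coding stretch: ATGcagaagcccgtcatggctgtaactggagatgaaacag

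The members spanned a wide range of RNA levels per transcript length. PRKAR1A was highest, at 167 ± 21.8 TPM (SD, n = 23), and PRKAR2A followed at 42.9 ± 6.24 TPM. PRKACA (18.4 ± 2.39 TPM), CREB1 (13.9 ± 2.67), ATF1 (13.1 ± 1.89), CRTC3 (10.6 ± 1.26), CREM (9.29 ± 4.35) and PRKACB (8.94 ± 1.11) lay close together. CRTC2 and CRTC1 were lowest, at 4.86 ± 0.722 and 3.14 ± 0.543 TPM. The order between PRKAR1A, PRKAR2A and PRKACA, and between PRKACB, CRTC2 and CRTC1, held in 23 of 23 libraries. CREB1 was above ATF1 in 16 of 23 libraries, and CREM was above PRKACB in 7 of 23 although its mean was higher. In the libraries labelled WT alone, ATF1 (13.9 ± 2.31 TPM, n = 6) stood above CREB1 (13.3 ± 1.504) in the mean, within their spread.

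**Figure D1:**
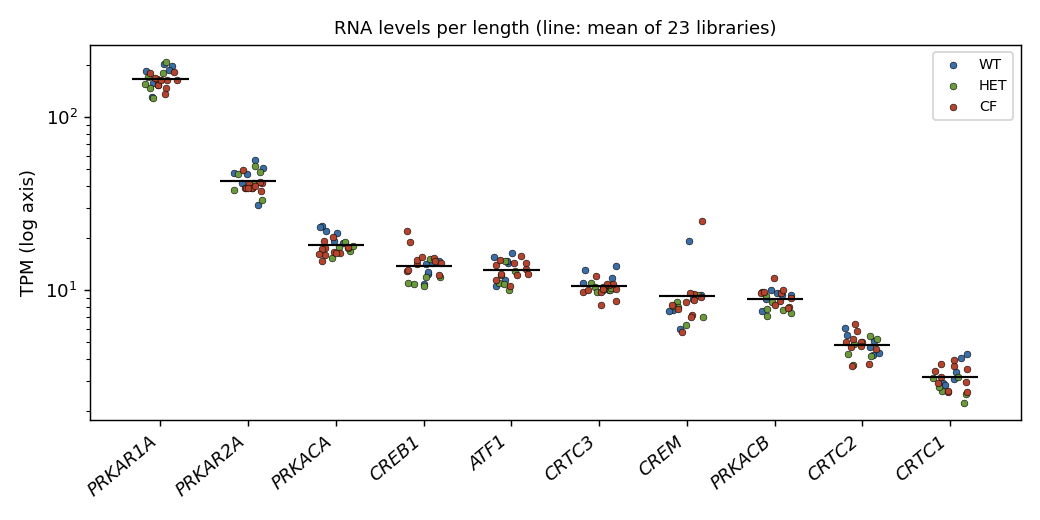
RNA level of each member in TPM (vertical log axis), 1 point per library coloured by label, with a line at the mean of 23 libraries. PRKAR1A stands apart at 167 TPM, and CREM is far higher in 2 libraries, WT pig 12 and CF pig 1, than in the others.

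Together, the regulatory subunit RNAs summed to 210 ± 27.5 TPM and the catalytic ones to 27.3 ± 2.83 TPM (SD, n = 23). The ratio of these sums was between 5.37 and 9.60 in all libraries, with a median of 7.75 in non-CF and 7.80 in CF libraries. The level of PRKAR1A carries a limit: its exons share 743 bases with FAM20A on the opposite strand, 19.7% of its 31-base words occur in other genes, and whether the authors' counting used strand is not given in the sources used here.

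CREB1, the main cAMP-responsive activator, was higher in the libraries labelled CF, as its choice fixed. In the libraries labelled WT it ranged from 65.6 CPM through a median of 72.5 to 78.6 CPM, and in those labelled HET from 63.0 through 70.9 to 80.3 CPM. In the libraries labelled CF it ranged from 77.0 through 86.3 to 112 CPM. The groups overlapped little: 9 of 11 CF libraries lay above every non-CF library, and 10 of 12 non-CF libraries lay below every CF library. The exceptions were CF pigs 2 and 10 on one side, and WT pig 17 and HET pig 19 on the other.

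The mean was 71.5 ± 4.99 CPM (SD, n = 12) in non-CF and 89.3 ± 10.4 CPM (n = 11) in CF libraries, a log2 difference of 0.32 (SE 0.059), or 1.25-fold. Against WT alone the log2 difference was 0.31 (SE 0.0739) and against HET alone 0.33 (SE 0.0739). It was 0.38 (SE 0.0847) among the earlier-numbered and 0.25 (SE 0.0796) among the later-numbered pigs. These values describe the choice of CREB1, and in this contrast 0.349% of all 20921 genes passed an adjusted p of 0.05. All 11 CF libraries lay above the non-CF median of CREB1, as was the case for 1.54% of the genes. The spread was wider in CF: the highest library, CF pig 6 at 112 CPM, stood above the next, CF pig 1 at 98.9 CPM.

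Between the labels that the choice did not use, CREB1 showed no difference past the test. HET against WT gave a log2 difference of -0.03 (SE 0.0831, 95% interval -0.20 to 0.15; adjusted p = 0.956, quasi-likelihood test of edgeR, Benjamini-Hochberg over all genes tested). HET libraries had 70.8 ± 5.64 CPM (SD, n = 6) and WT libraries 72.1 ± 4.69 CPM (n = 6), and 1 of 6 HET libraries lay above the WT median.

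**Figure D2:**
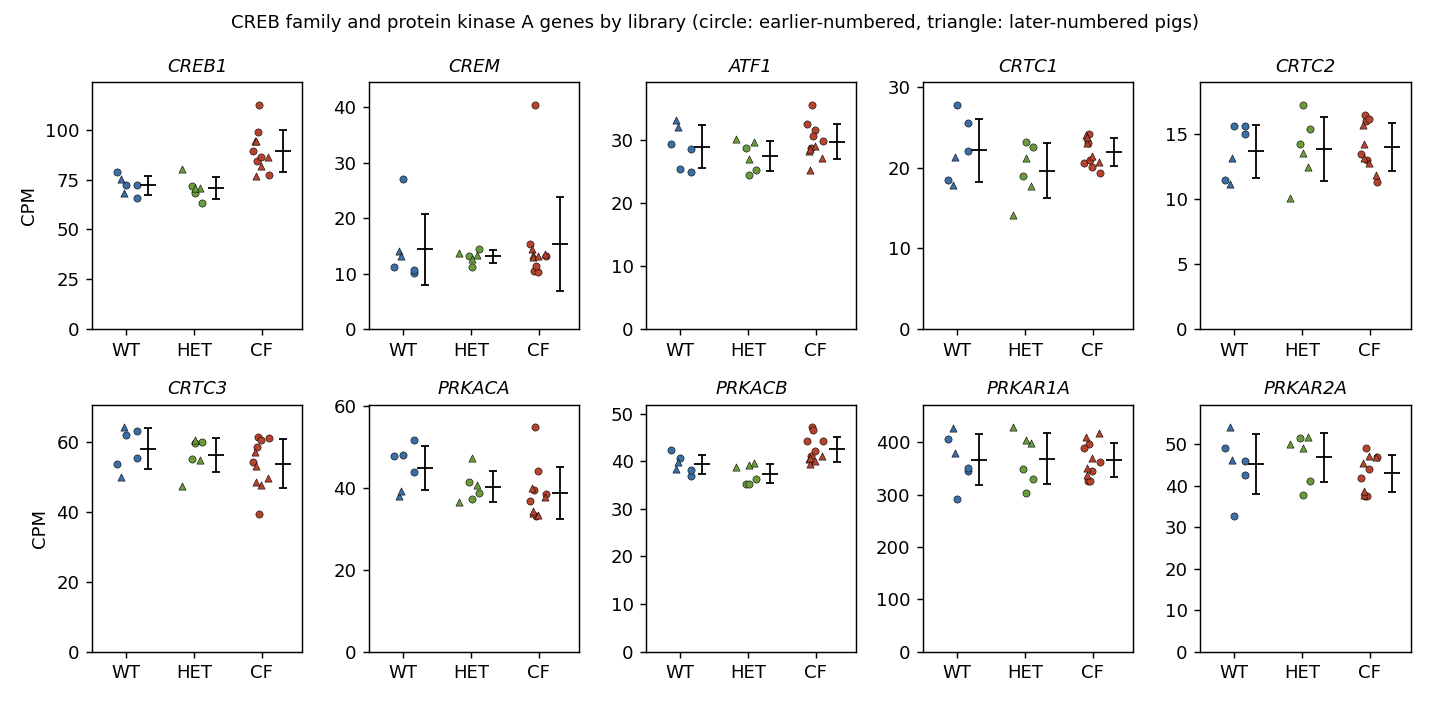
CPM of each member (vertical axes, from 0) by label, 1 point per library, circles for earlier- and triangles for later-numbered pigs, with mean and SD beside the points. CREB1 is higher in CF libraries (77.0 to 112 CPM) than in non-CF ones (63.0 to 80.3 CPM), and CREM stands out in WT pig 12 and CF pig 1.

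Most CREB1 RNA was assigned to transcripts that the annotation holds to be non-coding. Variant X5 took 68.7% ± 5.58 (SD, n = 23) of CREB1 TPM and X3 took 16.99% ± 5.19, both annotated as miscellaneous RNA. They differ from the coding variants in the last exon, where a segment of 1269 bases, at chr15:110767380-110768648, is spliced out beyond the last coding base of X1 at 110766950. Transcripts without that segment made up 88.3% ± 2.04 of CREB1 TPM in non-CF libraries (n = 12) and 84.5% ± 4.82 in CF libraries (n = 11). In TPM, transcripts that keep it were at 1.49 ± 0.389 in non-CF and 2.43 ± 1.04 in CF libraries. X5, which lacks it, was at 8.61 ± 0.867 and 10.4 ± 1.34 TPM, so the mean was higher in CF libraries for both. X3, which also lacks it, was nearly the same, at 2.38 ± 0.669 in non-CF and 2.39 ± 1.26 TPM in CF libraries. Among transcripts that span the alternative exon printed above, 21.5% ± 2.99 of the TPM included it in non-CF and 18.5% ± 5.05 in CF libraries. Transcript shares are estimates of how reads divide among similar sequences and were not tested. An antisense gene, LOC102167165, shares 217 exon bases with CREB1, and reads of the pair cannot be told apart without strand.

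CREM behaved unlike the other members, since 2 libraries set its values. It ranged from 10.2 through 12.2 to 27.1 CPM in the libraries labelled WT, from 11.3 through 13.3 to 14.5 CPM in those labelled HET, and from 10.4 through 13.2 to 40.4 CPM in those labelled CF. WT pig 12 and CF pig 1 held the maxima, and the other 21 libraries lay between 10.2 and 15.3 CPM. The CF libraries did not differ from the non-CF ones beyond this spread (log2 difference 0.16, SE 0.196, adjusted p = 0.789 by edgeR), and without CF pig 1 the sign turned (-0.10). HET against WT gave -0.13 (SE 0.275, adjusted p = 0.931 by edgeR), 0.15 without WT pig 12, and -0.33 with the Y-linked gene as a term.

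The excess lay in the short transcripts that start last in the gene. Variants X24, X26 and X27 begin at 57881337, 57881498 and 57881736 on chromosome 10 and have coding lengths of 378, 342 and 309 bases. Short CREM transcripts from an internal start are the kind described for ICER. Together they reached 18.7 TPM in CF pig 1 and 13.997 TPM in WT pig 12, against 1.33 to 3.57 TPM (median 2.48) in the other 21 libraries. They made up 74.0% and 72.6% of CREM TPM in those 2 libraries and 18.97% to 41.7% in the others. Transcripts from the first start were at 5.55 and 4.37 TPM there, inside the range of 3.38 to 6.14 TPM in the other libraries.

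Genes induced early by cAMP and growth signals were highest in the same 2 libraries. FOS was at 417 CPM in CF pig 1 and 155 CPM in WT pig 12, against 2.23 to 61.8 CPM (median 3.54) elsewhere. NR4A2, a nuclear receptor gene known as a CREB1 target, was at 46.0 and 42.3 CPM against 4.65 to 8.34 CPM. EGR1, FOSB, JUNB, NR4A3, PTGS2 and DUSP1 likewise ranked first in CF pig 1 and second in WT pig 12 of 23 libraries. HET pig 20 came next for FOS, at 61.8 CPM, and for FOSB, at 22.3 CPM, while its CREM, at 13.4 CPM, lay inside the range of the other libraries. CREB1 itself was at 98.9 CPM in CF pig 1 and 72.5 CPM in WT pig 12, each inside the range of its label. The libraries were compared after the CREM values had been seen, and these sets of values are a description of single pigs.

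**Figure D3:**
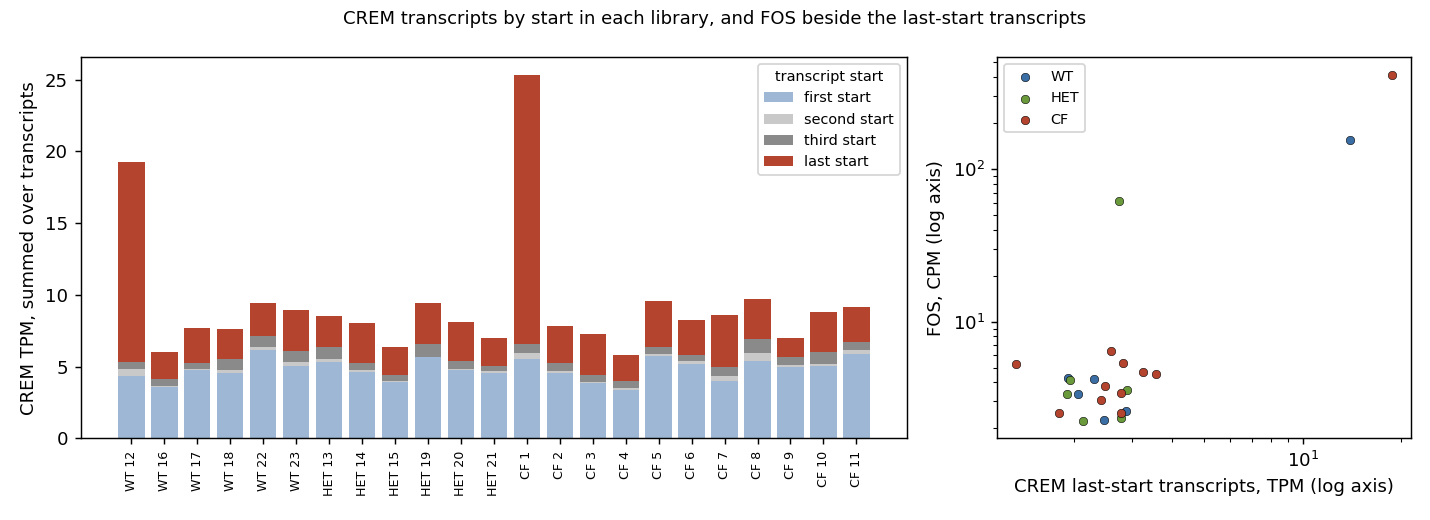
Left, CREM TPM in each library, stacked by the start of its transcripts. Right, FOS in CPM against TPM of the last-start CREM transcripts, both on log axes, 1 point per library. CF pig 1 and WT pig 12 stand apart in both panels at 18.7 and 13.997 TPM.

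The stretch printed above carries both copies of TGATGTCA, 173 and 162 bases before the start of X27. They begin at 57881563 and 57881574, after the starts of X24 and X26 and so inside those transcripts' span. Searched on both strands from 250 bases before to 50 bases after the outermost start of 19559 genes, TGATGTCA occurred in 1.39% of promoters and at least 2 copies in 0.015% of them. The inner starts of CREM are not among these promoters. The motif was chosen after the CREM values had been seen and the sequence before the last CREM start had been read. Its 2 copies there were thus known beforehand, and their rarity elsewhere tests nothing. The full response element TGACGTCA, in 2.25% of the promoters, and its shorter form TGACG, which it contains and which 24.2% held, were looked for at the starts of the members. At the outermost start of each of the 10 genes TGACGTCA was found in 0, and TGACG at PRKACA (2 copies) and PRKAR1A (1 copy). Of the inner transcript starts, that of the curated PRKAR1A transcript, at 84.2 TPM in the mean the most abundant of that gene, held 1 TGACGTCA and 3 copies of TGACG, the full element included. CREM X27 and CRTC2 X2 held 1 TGACG each. The members have up to 27 annotated transcripts each (CREM), and these matches were not set against the number of starts searched. A match describes letters only.

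ATF1, the third factor of the family, ranged from 24.9 to 33.2 CPM in the libraries labelled WT, from 24.4 to 30.2 CPM in those labelled HET and from 25.2 to 35.6 CPM in those labelled CF. The groups overlapped throughout, and CF against non-CF gave a log2 difference of 0.08 (SE 0.0623, adjusted p = 0.653 by edgeR). Among the earlier-numbered pigs ATF1 was at 26.6 ± 2.13 CPM (SD, n = 7) in non-CF and 31.5 CPM (n = 6) in CF libraries. Among the later-numbered ones it was at 30.4 ± 2.41 CPM (n = 5) and 27.6 CPM (n = 5). The log2 differences, 0.24 (SE 0.0705) and -0.13 (SE 0.0775), were opposite in sign, but their difference of -0.38 (SE 0.103) had an unadjusted p of 0.00129 and an adjusted p of 0.174 by edgeR.

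The CRTC coactivators did not pass the test in any contrast. CRTC3, the most abundant, was at 57.3 ± 5.28 CPM (SD, n = 12) in non-CF and 53.9 ± 6.94 CPM (n = 11) in CF libraries (log2 difference -0.09, SE 0.0692, adjusted p = 0.632 by edgeR). CRTC1 was at 20.9 ± 3.75 and 21.9 ± 1.75 CPM (0.07, SE 0.0848, adjusted p = 0.782 by edgeR) and CRTC2 at 13.8 ± 2.16 and 14.03 ± 1.83 CPM (0.03, SE 0.0882, adjusted p = 0.937 by edgeR). CRTC1 varied less among the CF than among the non-CF libraries, which reached from 14.1 to 27.8 CPM. Within the pig sets the log2 difference of CRTC1 was -0.08 (SE 0.103) among earlier- and 0.30 (SE 0.112) among later-numbered pigs, and their difference had an adjusted p of 0.377 by edgeR. Variant X2 of CRTC3 took 15.4% ± 6.99 of its TPM in non-CF and 23.8% ± 9.90 in CF libraries, which overlap.

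Of the catalytic subunits, PRKACB was slightly higher and PRKACA slightly lower in the CF libraries, and neither passed the test over all genes. PRKACB ranged from 35.2 through 38.6 to 42.3 CPM in non-CF and from 39.5 through 41.2 to 47.1 CPM in CF libraries. All 11 CF libraries lay above the non-CF median, as CREB1 did, and 4 of them above every non-CF library. The log2 difference was 0.15 (SE 0.0448), with an unadjusted p of 0.00324 and an adjusted p of 0.126 by edgeR. DESeq2 gave an adjusted p of 0.0404, and 34 alternatives in all reached from 0.0404 to 0.750. Among the earlier-numbered pigs the log2 difference was 0.23 (SE 0.0669) and among the later-numbered 0.05 (SE 0.0603).

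PRKACA ranged from 36.6 through 41.1 to 51.8 CPM in non-CF and from 33.3 through 37.9 to 54.9 CPM in CF libraries. The maximum was CF pig 1, 9 of 11 CF libraries lay at or below the non-CF median, and 4 lay below every non-CF library. The log2 difference was -0.13 (SE 0.0801, adjusted p = 0.487 by edgeR), and against WT alone -0.21 (SE 0.0951), with an unadjusted p of 0.0386 and an adjusted p of 0.322 by edgeR.

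The ratio of PRKACB to PRKACA, which is free of library size, differed between the labels. In TPM it ranged from 0.347 through a median of 0.441 to 0.515 in non-CF and from 0.426 through 0.564 to 0.679 in CF libraries, and 10 of 11 CF libraries lay above the non-CF median. The mean log2 ratio was -1.18 ± 0.158 (SD, n = 12) in non-CF and -0.89 ± 0.186 (n = 11) in CF libraries, a difference of 0.29 (two-sided permutation test with 100000 resamples, p = 0.0006, adjusted over the 4 ratio tests p = 0.0024). The difference was 0.35 among the earlier-numbered pigs (exact permutation p = 0.00583) and 0.21 among the later-numbered (exact permutation p = 0.0238). HET against WT gave 0.08 (exact permutation p = 0.403, adjusted p = 0.537 over the 4 ratio tests; the smallest p this test allows is 0.00216).

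**Figure D4:**
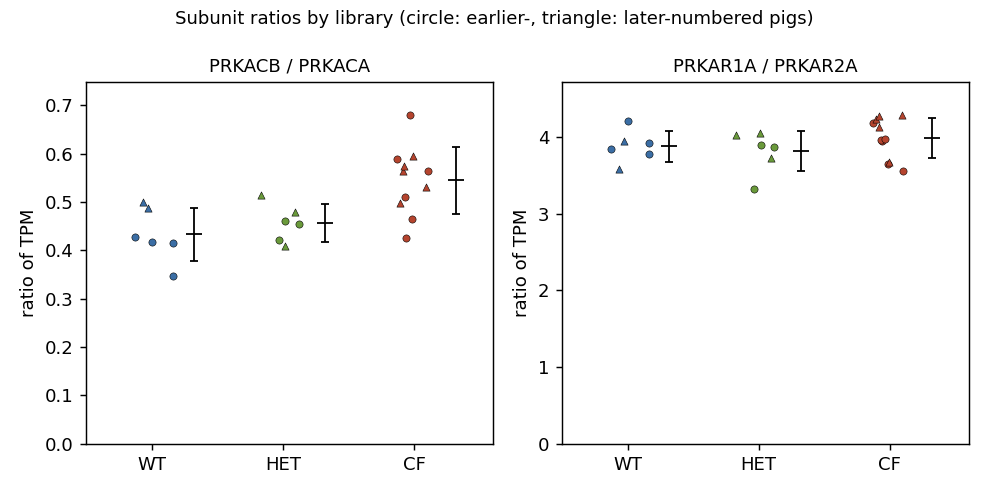
Ratio of PRKACB to PRKACA and of PRKAR1A to PRKAR2A in TPM (vertical axes, from 0) by label, 1 point per library, circles for earlier- and triangles for later-numbered pigs, with mean and SD. The catalytic ratio reaches 0.515 in non-CF and 0.679 in CF libraries, and the regulatory ratio overlaps between labels.

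Most TPM of each catalytic gene was assigned to 1 first exon. The downstream first exon of PRKACA, printed above as X2, carried 68.8% ± 8.19 of its TPM in non-CF and 67.0% ± 5.18 in CF libraries. In TPM it was at 13.4 ± 2.69 and 11.5 ± 1.28, against 6.02 ± 1.71 and 5.69 ± 1.09 from the upstream exon. PRKACB, on chromosome 6 from 129520397 to 129636207 on the minus strand, was read mostly as X2, at 62.1% ± 7.52 of its TPM in non-CF and 61.2% ± 4.97 in CF libraries. The shares overlapped between groups for both genes. They are estimates of how reads divide among similar sequences and were not tested. The first exon of PRKACA X2 has only 37 bases, against 262 for X1.

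The regulatory subunits showed no difference past the test. PRKAR1A, the type I alpha subunit, was at 368 ± 46.8 CPM (SD, n = 12) in non-CF and 367 ± 32.8 CPM (n = 11) in CF libraries (log2 difference -0.01, SE 0.0696, 95% interval -0.15 to 0.14, adjusted p = 0.986 by edgeR). PRKAR2A, the type II alpha subunit, was at 46.0 ± 6.36 and 43.0 ± 4.43 CPM (-0.10, SE 0.0757, adjusted p = 0.627 by edgeR), and 10 of 11 CF libraries lay at or below its non-CF median. The log2 difference of PRKAR2A was 0.0012 (SE 0.0993) among earlier- and -0.21 (SE 0.0856) among later-numbered pigs, and these did not differ past the test (adjusted p = 0.642 by edgeR). Their ratio in TPM ranged from 3.33 to 4.20 in non-CF and from 3.56 to 4.29 in CF libraries, a log2 difference of 0.05 (permutation p = 0.201, adjusted p = 0.401). In CPM, where transcript length is not taken into account, that difference was 0.09 (permutation p = 0.0400). PRKAR1A RNA was divided between the curated transcript, which has a short 3' end, and 2 variants with a long one. The long form held 48.0% ± 3.02 of its TPM in non-CF and 51.3% ± 2.85 in CF libraries. The curated transcript also has its own start, so this share is not one of 3' ends alone.

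In all, 0 of the 9 members tested passed an adjusted p of 0.05 for CF against non-CF by edgeR (0.349% of all genes), and 1 (PRKACB) had an unadjusted p under 0.05. DESeq2 called 1 (PRKACB), and 488 of the 19704 genes to which it gave an adjusted p (2.48%). An unadjusted p under 0.05 was reached by 13.7% of all genes in that contrast. Against WT alone 0 of 9 passed (0.336% of all 21434 genes; 1 member, PRKACA, under an unadjusted 0.05, as 14% of all genes), and against HET alone 0 of 9 (0.0% of all genes; 1 member, PRKACB, under an unadjusted 0.05, as 9.83% of all genes). For HET against WT 0 of 10 passed (0.00467% of all genes) and 0 had an unadjusted p under 0.05, which 8.0% of all genes had, with log2 differences between -0.18 for CRTC1 and 0.05 for PRKAR2A. Of the difference of the CF effect between earlier- and later-numbered pigs, 0 of 9 passed (0.0191% of all genes), and ATF1, CRTC1 and PRKACB had an unadjusted p under 0.05, as 10.1% of all genes did, at -0.38, 0.38 and -0.18.

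**Figure D5:**
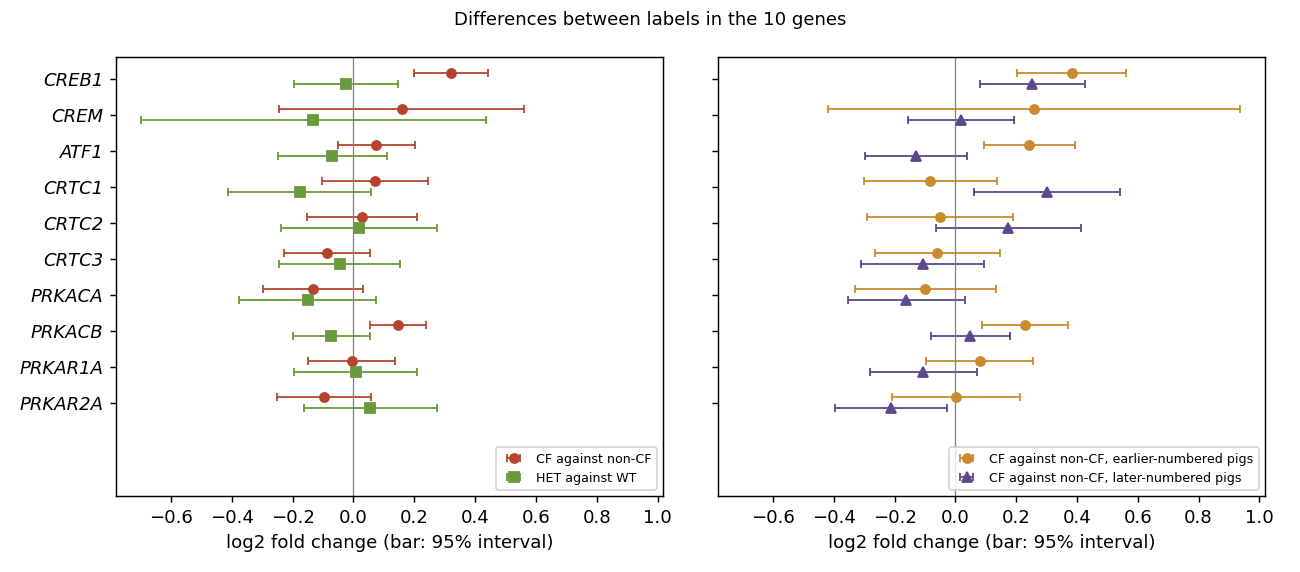
Log2 fold change of each member (horizontal axis) with its 95% interval: left, CF against non-CF and HET against WT; right, CF against non-CF within earlier- and within later-numbered pigs. CREB1 was chosen for the first of these contrasts; ATF1 lies at 0.24 and -0.13 in the right panel.

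Around the members, 110 listed genes of the pathway were tested in the same fit, and 1 passed, GPBAR1. This gene of the bile acid receptor TGR5, which raises cAMP, was lower in the CF libraries. It ranged from 0.68 through 1.19 to 2.18 CPM in non-CF and from 0.18 through 0.44 to 0.81 CPM in CF libraries, and 11 of 11 CF libraries lay below the non-CF median. The log2 difference was -1.46 (SE 0.215, adjusted p = 0.00573 by edgeR), on 6 to 101 counts per library. Of 33 alternatives, it missed the threshold in 1, the earlier-numbered pigs alone (adjusted p = 0.164). Of 15 receptor genes tested, 8 were higher and 7 lower in the mean, and PTH1R (0.19, adjusted p = 0.263 by edgeR), ADORA2A (-0.30, 0.268) and GCGR (0.44, 0.277), the parathyroid hormone, adenosine and glucagon receptors, came next without passing by edgeR. In the later-numbered pigs alone PTH1R (0.36, adjusted p = 0.0455 by edgeR) and GCGR (0.89, adjusted p = 0.0312 by edgeR) passed. Over all genes 473 passed there, against 73 with all libraries and 0 in the earlier-numbered pigs alone.

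Of the 13 other CREB and ATF factors and coactivators, 10 were higher in CF in the mean and 0 passed by edgeR (3 had an unadjusted p under 0.05), with a median log2 difference of 0.13 against -0.00052 over all genes. CREBZF, a factor of the same bZIP class, was at 80.6 ± 8.18 CPM in CF and 69.1 ± 6.09 CPM in non-CF libraries (0.22, SE 0.0604, adjusted p = 0.0865 by edgeR). DESeq2 called 2 of them, CREBZF (adjusted p = 0.0294) and CREBRF (adjusted p = 0.0409). By edgeR, CREBRF, a regulator of CREB3, was at 0.36 (SE 0.104, adjusted p = 0.102) and CREBL2 at 0.25 (SE 0.0779, adjusted p = 0.126). CREBL2 also had the smallest p of the listed genes for HET against WT, at 0.26 (SE 0.0969, adjusted p = 0.548), where 6 of 6 HET libraries lay above the WT median.

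Over all genes, 49.8% were higher in CF in the mean. Of the 10 kinases and phosphatases that set where CRTC proteins reside, 9 were higher in CF in the mean and 0 passed by edgeR or DESeq2 (2 had an unadjusted p under 0.05 by edgeR, median 0.11). PRKAA1, a catalytic subunit of AMP-activated kinase, had a log2 difference of 0.17 (SE 0.0526, adjusted p = 0.129), and the calcineurin genes PPP3CA and PPP3R1 had 0.13 and 0.11 (adjusted p = 0.339 and 0.379). Of the 16 CREB target genes tested, 13 were higher and 0 passed by edgeR or DESeq2 (3 had an unadjusted p under 0.05 by edgeR, median 0.28), a count that rested on the libraries of high CREM. Without CF pig 1, 7 of 16 were higher (median -0.16), and without CF pig 1 and WT pig 12 together 9 of 16 (median 0.0306). For HET against WT, 5 of 16 were higher (median -0.22), and 11 of 16 without WT pig 12 (median 0.14), where 48.8% of all genes were higher with all libraries. By edgeR, 0 of 16 passed in each of these. CCNA2, a cyclin of dividing cells, was at -0.25 (adjusted p = 0.236) with 11 of 11 CF libraries below the non-CF median, JUNB at 1.08 (adjusted p = 0.277), where CF pig 1 alone held 229 CPM, and the clock gene PER1 at 0.29 (adjusted p = 0.359).

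Of the enzymes that make and break cAMP, the anchoring proteins and the other PKA genes, 0 passed with all libraries by edgeR or DESeq2, and 5 had an unadjusted p under 0.05 by edgeR. In the later-numbered pigs alone, where 473 of all genes passed, PDE8B passed (0.50, adjusted p = 0.0391 by edgeR). Of 16 phosphodiesterases 11 were higher in the mean (median 0.05), led by PDE3B (0.23, adjusted p = 0.189; above the non-CF median in 11 of 11 CF libraries), PDE4B (0.34, 0.363) and PDE8B (0.25, 0.48). Of 15 cyclase and G protein genes 8 were higher (median 0.02), and 3 without CF pig 1 and WT pig 12 together (median -0.0242), with ADCY3, ADCY8 and ADCY10 at the smallest p (adjusted p = 0.503, 0.655 and 0.756). Of 14 anchoring proteins 7 were higher (median -0.0047), with AKAP5 (0.28, adjusted p = 0.223), AKAP12 (-0.17, 0.495) and AKAP14 (0.09, 0.586) first. Of 11 other PKA subunits, inhibitors and cAMP receptors 4 were higher (median -0.04), with PRKAR1B (0.29, 0.322), RAPGEF4 (-0.16, 0.332) and POPDC2 (0.26, 0.392) first. For HET against WT, 0 genes of the pathway lists passed by edgeR or DESeq2, and 2 had an unadjusted p under 0.05 by edgeR.

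Within labels, the genes whose RNA varied most like that of CREB1 included LOC100627410 (Pearson r = 0.81), PTBP3 (0.77), RNF138 (0.77) and LUM (0.77), after the mean of each label was subtracted, over 23 libraries and 18123 other genes of at least 1 CPM. Among the members, PRKACB (0.50, rank 536) and ATF1 (0.49, rank 632) were the most alike, CRTC3 was the least (-0.53, rank 17801), and CREM stood between (0.21, rank 4092). The libraries share depth, tissue composition and the pig sets, and the r values are descriptions. Of 38 marker genes of 9 cell types, 0 passed for CF against non-CF by edgeR, and 3 of 5 loop of Henle and distal tubule markers had an unadjusted p under 0.05, against 13.7% of all genes, with a median log2 difference of -0.28 over the 5. Their summed level ranged from 517 to 741 TPM in CF and from 485 to 1267 TPM in non-CF libraries, and the part of tissue composition in the values above was not tested.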

How the data were processed

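RNA-Seq of kidney cortex covered 23 libraries, each from a separately numbered newborn pig. The authors pseudoaligned reads of a stranded, ribosome-depleted kit with kallisto to pig transcripts of Sscrofa11.1; its strand setting is not given in the sources used here. They deposited an estimated count and a TPM value for each of 77689 transcripts, without further normalization or pooling. Estimated counts were summed per gene symbol and rounded, as 64.0% of transcript values were not whole; TPM values were summed.

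Members and lists were chosen with earlier results of these data known. edgeR 4.0.16 (R 4.3.3; TMM, filterByExpr, quasi-likelihood test, Benjamini-Hochberg adjustment over all genes, limit 0.05) compared CF with non-CF libraries, and in a second fit the 3 labels, which shared 1 estimate of the spread. Named genes were the members, CFTR, listed genes that passed and up to 3 more per list by p, the 5 genes most like CREB1, and the most abundant marker of the leading cell types, of which some are not reported here; early genes were named after CREM was seen. Ratios used permutation tests (scipy 1.17.1). Log2 CPM used a prior count of 2.

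Alternatives were DESeq2 1.42.0, 2 other scalings, 2 filters, the pig sets, an exact Mann-Whitney U test with a pseudocount of 0.5, each library left out, and, added after seeing the data, the Y-linked gene as a term and WT pig 12 and CF pig 1 left out together. In data simulated for CF against non-CF, 200 genes changed by 1 log2 unit over 20795 genes, edgeR recovered 96.5% with 4.9% false calls and DESeq2 98.5% with 11.7%; for HET against WT, over 20914 genes, edgeR recovered 91% with 7.1%. The planned test of transcript use recovered 28.5% with 43% false calls over 9679 genes, so it was dropped and transcript shares were not tested. Counts of 412 (CRTC2) to 20530 (PRKAR1A) per member and library stand behind the values. G6PC1 was matched as G6PC; NR4A1 and PRKACG were not measured.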

Additional observations from a re-analysis of the deposited data

Results flagged for a closer look

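CREM in WT pig 12 was at 27.1 CPM, and the other 5 libraries labelled WT lay between 10.2 and 14.01 CPM. It was singled out because its gap to the nearest of the others was 0.774 of the range of the group. The test was made for 24 sets of 6 libraries, the members and both ratios in the labels WT and HET, of which chance alone picks about 1 in 20, and this was the 1 set found. The CF libraries, with 11 pigs, were not tested in this way. The excess in WT pig 12 lay in the last-start transcripts, at 13.997 TPM, as in CF pig 1. By edgeR, 0 of 9 members tested passed for a difference in the CF effect between earlier- and later-numbered pigs (0.0191% of all genes), and 3 had an unadjusted p under 0.05 (10.1% of all genes).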

How the results depend on the processing

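No paired analysis was possible because the labels do not give the litter. Any littermates among the pigs were treated as independent. The 23 libraries limit the precision, member counts were 412 or more per library, and intervals cover the spread between pigs only. With each of the 23 libraries left out in turn, edgeR called 0 members for CF against non-CF. DESeq2 called 1 member for CF against non-CF, PRKACB. It called 3 genes of the pathway lists, GPBAR1, CREBRF and CREBZF, where the main test called 1, and over all genes 488 against 73. The later-numbered pigs alone gave 4, GPBAR1, GCGR, PDE8B and PTH1R, with 473 calls over all genes. The earlier-numbered pigs alone gave 0, with 0 calls over all genes. CREB1 was between 0.25 and 0.38 for CF against non-CF over the alternatives. The ratio of PRKACB to PRKACA for CF against non-CF stayed between 0.26 and 0.33 with 1 library left out (p between 0.0001, the smallest over these settings, and 0.00162); for HET against WT it was -0.0887 in the later-numbered pigs. The ratio of PRKAR1A to PRKAR2A was 0.0904 in CPM for CF against non-CF (permutation p = 0.0400), and for HET against WT 0.0657 in the later-numbered pigs and -0.0466 to 0.015 with 1 library left out. The PRKACA level was 21.4 TPM over WT libraries alone.

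Members that did not pass changed sign as follows. For CF against non-CF, earlier-numbered pigs alone gave -0.0823 for CRTC1, -0.0503 for CRTC2, 0.080 for PRKAR1A and 0.0012 for PRKAR2A, later-numbered pigs alone gave -0.13 for ATF1, and the Mann-Whitney U test gave 0.0019 for PRKAR1A. With 1 library left out, CREM ran from -0.10 to 0.29, CRTC2 from -0.0057 to 0.0615 and PRKAR1A from -0.0304 to 0.0165. For HET against WT, upper-quartile scaling gave -0.0075 for CRTC2 and -0.0186 for PRKAR1A, the pig set as a term -0.0271 and the Y-linked gene as a term -0.0426 for PRKAR1A. Leaving out WT pig 12 and CF pig 1 together gave 0.15 for CREM, -0.0462 for PRKAR1A and -0.0169 for PRKAR2A. With 1 library left out, CREB1 ran from -0.0578 to 0.00597, CREM from -0.21 to 0.15, CRTC2 from -0.0511 to 0.10, CRTC3 from -0.0774 to 0.0062, PRKAR1A from -0.0462 to 0.0632 and PRKAR2A from -0.0169 to 0.12. The causes were not tested.

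Over all genes, the 73 calls for CF against non-CF became 150 with a filter of 1 CPM, 148 with the pig set as a term, 0 and 473 in earlier- and later-numbered pigs alone, 488 with DESeq2, and 17 to 203 with 1 library left out. The 1 call for HET against WT became 32 with DESeq2. The 72 calls for CF against WT became 139 with upper-quartile scaling, 140 with that filter, 172 with the pig set as a term and 573 with DESeq2. The 0 calls for CF against HET became 4, 2, 4 and 56 under the same settings, and 1 each without a filter and with the Y-linked gene as a term. The second filter on transcripts for transcript use was not run, since that test was dropped.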
